A study of Homo sapiens with 17 samples.

Results

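ABCA1 (Entrez 19) and ABCG1 (Entrez 9619), the transporters that carry cholesterol out of the cell, were followed over all 17 arrays of a series of breast cell lines. They are 2 of the 17687 genes measured, each read by 1 probe set, and were taken by gene symbol. The pair was chosen by its values against each possible control on these same arrays, so its levels and differences are given as a description, with no test. MDA-MB-231 is a breast cancer line of mesenchymal type that lacks hormone receptors and HER2, whereas MCF10 cells come from mammary epithelium and form no tumours. MDA-MB-231 cells received DZH_2, known here by its code name, or Maraviroc, a small-molecule drug. Each was given for 48 h at IC20 or IC50, the concentrations that inhibit by 20% and 50%. Their controls were DMSO (the solvent of DZH_2), ethanol (the solvent of Maraviroc) and untreated cells. There were 2 arrays in each of these MDA-MB-231 groups, except 1 of untreated cells, 13 in all. The cells titled MCF10 gave 4 arrays, 1 of untreated cells, 1 with DMSO and 1 at each dose of DZH_2. The sources used here give neither molar concentrations nor whether replicates were separate cultures, so the spread between replicates may be technical.

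ABCA1 loads cholesterol and phospholipid onto lipid-poor apolipoprotein A-I, the first step in making high-density lipoprotein. ABCG1 works as a dimer and moves sterol toward particles that already carry lipid. The genes of both are classic targets of the liver X receptors (LXR), nuclear receptors that pair with RXR and are switched on by oxysterols when cell sterol is ample. When sterol is scarce, SREBF2 drives the genes of sterol synthesis and uptake instead, so the programmes usually run in opposite directions.

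The 250 bases before the ABCA1 start are shown because they hold matches to the elements through which such factors act. The sequence is from RefSeq, GRCh38.p14, chr9:104928156-104928405 on the minus strand, read 5′ to 3′ toward the gene. Of the 2 genes ABCA1 was matched there. Capitals mark, in order, an E-box, a match to an LXR-type direct repeat and a TATA box.
ABCA1: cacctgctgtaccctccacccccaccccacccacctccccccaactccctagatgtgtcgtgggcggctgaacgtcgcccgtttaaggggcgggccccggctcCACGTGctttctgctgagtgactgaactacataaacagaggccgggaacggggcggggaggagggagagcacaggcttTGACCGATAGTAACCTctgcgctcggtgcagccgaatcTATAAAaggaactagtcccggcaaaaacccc

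The direct repeat searched was AGGTCA followed by AGGTCA with 4 bases between, on both strands. ABCA1 held it on the other strand, 69 to 54 bases before the start, with 2 mismatches in the repeat. Within 2 mismatches it occurred in 2.03% of 35116 promoter windows of the same length, and without mismatch in 0.0142%. The E-box, CACGTG, was 147 to 142 bases before the start and occurred in 6.34% of windows. The TATA box, TATAAA, was 31 to 26 bases before the start and occurred in 10.7% of windows on either strand. The sterol response element TCACNCCAC, found in 0.883% of windows, was not among the letters of this one. The marked matches do not overlap.

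ABCA1 mRNA is also a known target of miR-33a and miR-33b, which lie in introns of SREBF2 and SREBF1 and share a seed. Their mature sequences (RefSeq, GRCh38.p14) are given with bases 2 to 8, the seed, in capitals, since the signals of both host genes are described further on. The miRNAs themselves were not analysed here.
miR-33a-5p: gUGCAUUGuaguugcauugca
miR-33b-5p: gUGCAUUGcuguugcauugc

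Signals are log2 values, so a difference of 1 is a doubling. As a guide to the floor, the 75th percentile of signals from negative control probes lay between 5.64 and 6.46 on the MDA-MB-231 arrays and between 6.05 and 6.60 on those titled MCF10. It was highest on the Maraviroc IC50 arrays among MDA-MB-231, at 6.42 and 6.46. Their replicates also differed most, with an SD over genes of 0.55 against 0.28 to 0.37 in the other groups. A level below this percentile is called near the negative controls. In bulk RNA fewer cells with a transcript and less transcript per cell cannot be told apart. The arrays titled MCF10 carry MDA-MB-231 in their cell line field. They differed from MDA-MB-231 in markers, but 4 of 9 basal epithelial markers were higher there by at least 1 and 2 lower, with CDH1 and EPCAM near the negative controls. Of 10 mesenchymal markers 4 were higher and 5 lower, so the name is kept from the titles only. Of 6 macrophage markers, genes of a cell type rich in both exporters, all 6 were above the percentile in MDA-MB-231 controls and 5 in MCF10 controls, led by the lysosomal CD68 at 13.89 and 12.57. The other 5 lay between 5.92 and 7.61 in MDA-MB-231 and between 6.10 and 8.97 in MCF10. By at least 1, 3 of the 6 markers were higher in MCF10 and 1, CD68, was lower. Their part in the exporters' levels was not tested.

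In untreated and DMSO-treated MDA-MB-231 cells both exporters were expressed. ABCG1 stood at 11.09 in untreated cells and at 10.90 and 10.82 in DMSO. ABCA1 stood at 7.54 in untreated cells and at 7.82 and 7.83 in DMSO. DMSO differed from untreated cells by 0.28 ± 0.43 for ABCA1 and -0.23 ± 0.39 for ABCG1, less than the standard error in both. The value after ± is here and below a standard error from limma. It combines each gene's spread within the replicated groups with the typical spread of all genes. A lone array is assumed to vary like the others.

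**Figure D1:**
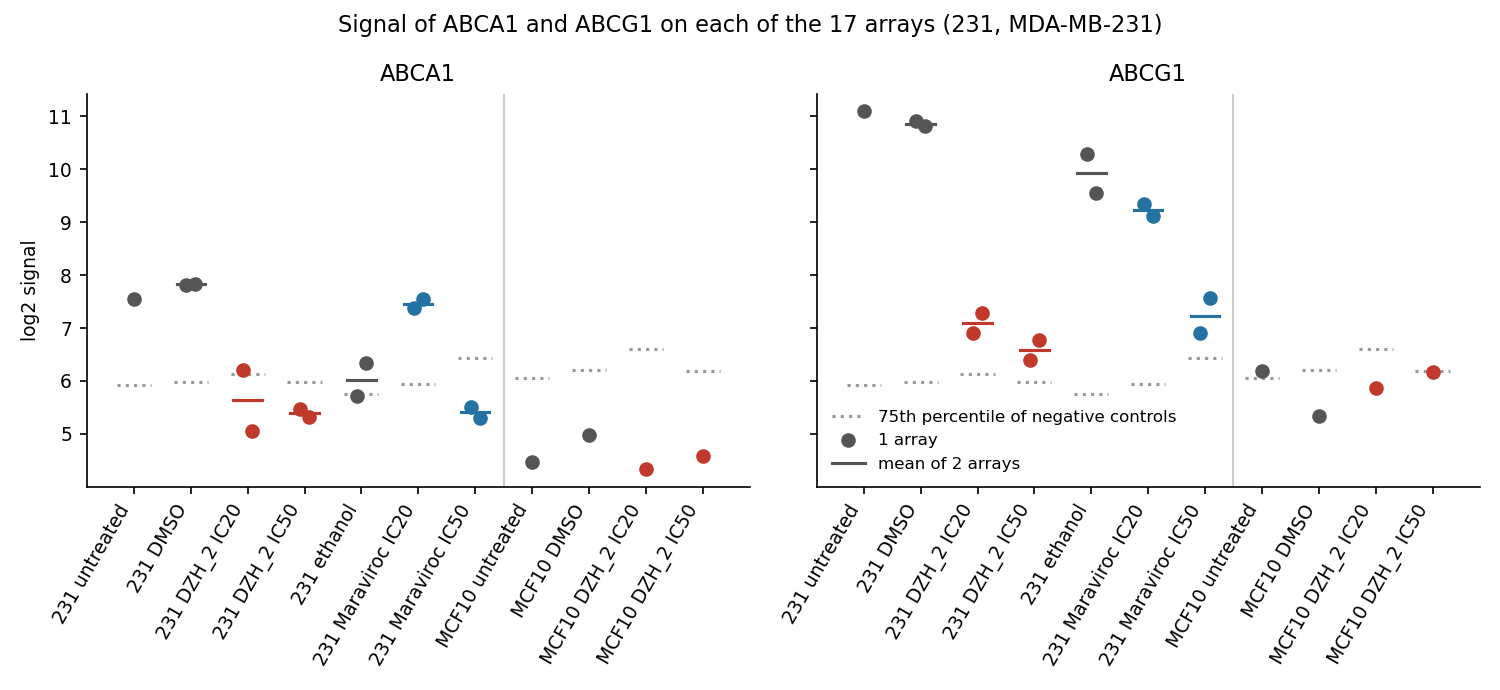
Log2 signal (vertical axis) of ABCA1 (left) and ABCG1 (right) on each array, by group; points are arrays, bars the means of 2 arrays and dotted lines the 75th percentile of the negative controls. ABCG1 lies at 9.55 or above on the 5 MDA-MB-231 control arrays and at 7.57 or below on every DZH_2 and Maraviroc IC50 array of that line, whereas ABCA1 is also low on the ethanol arrays.

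DZH_2 arrays had far less of both exporters than DMSO arrays. ABCG1 was 6.90 and 7.29 at IC20 and 6.40 and 6.77 at IC50, against 10.90 and 10.82 in DMSO. No treated array overlapped a DMSO array, and the smallest gap was 3.53 at IC20 and 4.05 at IC50. The differences of -3.77 ± 0.32 and -4.28 ± 0.32 leave 7.35% and 5.16% of the DMSO signal, and were the lowest of all 17687 genes at each dose. All 4 values stayed above the percentile of the negative controls.

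ABCA1 was 6.22 and 5.06 at DZH_2 IC20 and 5.48 and 5.31 at IC50, against 7.82 and 7.83 in DMSO. Again no treated array overlapped a DMSO array, although the replicates of IC20 were far apart (SD 0.81, n = 2). The differences were -2.19 ± 0.35 and -2.43 ± 0.35. Without replicate 1 of IC20 the first was -2.76, and without replicate 2 it was -1.61. All 4 DZH_2 values lay near the negative controls, so the signal was at least 3.24-fold lower at IC20 and at least 3.61-fold lower at IC50, taking the percentile on each array as the floor. Complete separation below DMSO held for 22.2% of all genes at IC20 and 23.5% at IC50.

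The step between the DZH_2 doses was small beside the step from DMSO. ABCG1 was lower by a further 0.51 (-0.51 ± 0.32), with a gap of 0.13 between the doses, a separation found in 15.4% of genes. The doses overlapped for ABCA1 (-0.24 ± 0.35), where both were at the floor.

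Maraviroc at IC50 had less ABCG1 than ethanol, while its ABCA1 was near the floor of the arrays. ABCG1 was 6.90 and 7.57 at IC50, against 10.30 and 9.55 in ethanol. The groups were 1.98 apart at their closest, with a difference of -2.69 ± 0.32 that leaves 15.5% of the ethanol signal. It ranked 429th from the lowest, in a comparison where 25.7% of genes lay wholly below ethanol and the median gene differed by 0.11 (0.28 once each array was centred on its median). ABCA1 was 5.52 and 5.31 at IC50, against 5.72 and 6.33 in ethanol. The difference of -0.61 ± 0.35 was -0.92 without ethanol replicate 1 and -0.31 without ethanol replicate 2. Both Maraviroc IC50 values and that of ethanol replicate 1 were below the percentile of the negative controls, so no fold is given.

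Maraviroc at IC20 separated the exporters. ABCA1 was 7.37 and 7.55, well above both ethanol arrays, and ABCG1 was 9.34 and 9.11, below both. The ABCA1 difference from ethanol was 1.44 ± 0.35. Since 1 of the 2 ethanol arrays was below the percentile of the negative controls, it is given as at least 2.57-fold higher. That of ABCG1 was -0.70 ± 0.32, with a gap of 0.21, and was -0.33 without ethanol replicate 1 and -1.07 without ethanol replicate 2. Treated arrays lay wholly above ethanol for 15.2% of genes, and wholly below it also for 15.2%. From IC20 to IC50 both exporters were lower, ABCA1 by -2.05 ± 0.35 (at least 2.03-fold) and ABCG1 by -1.99 ± 0.32, with no overlap; 26.2% of genes were separated in that direction.

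ABCA1 at Maraviroc IC20 was higher than in ethanol but not than in DMSO or untreated cells. In ethanol ABCA1 stood at -1.80 ± 0.35 relative to DMSO and -1.52 ± 0.43 relative to untreated cells. With 1 ethanol array below the percentile of the negative controls, it was at least 3.30-fold lower than in DMSO. Both ethanol arrays lay below both DMSO arrays, as they did for 21.0% of genes. Against DMSO, ABCA1 at Maraviroc IC20 was -0.36 ± 0.35, and against the untreated array -0.08 ± 0.43, with that array between the treated ones. ABCG1 kept its direction with every control: at Maraviroc IC20 it was -1.64 ± 0.32 against DMSO (7th lowest) and -1.87 ± 0.39 against untreated cells (12th lowest). Over the 5 controls together the 2 genes stood at 0.41 ± 0.29 and -1.31 ± 0.27. These comparisons share the Maraviroc arrays and are not independent of one another.

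**Figure D2:**
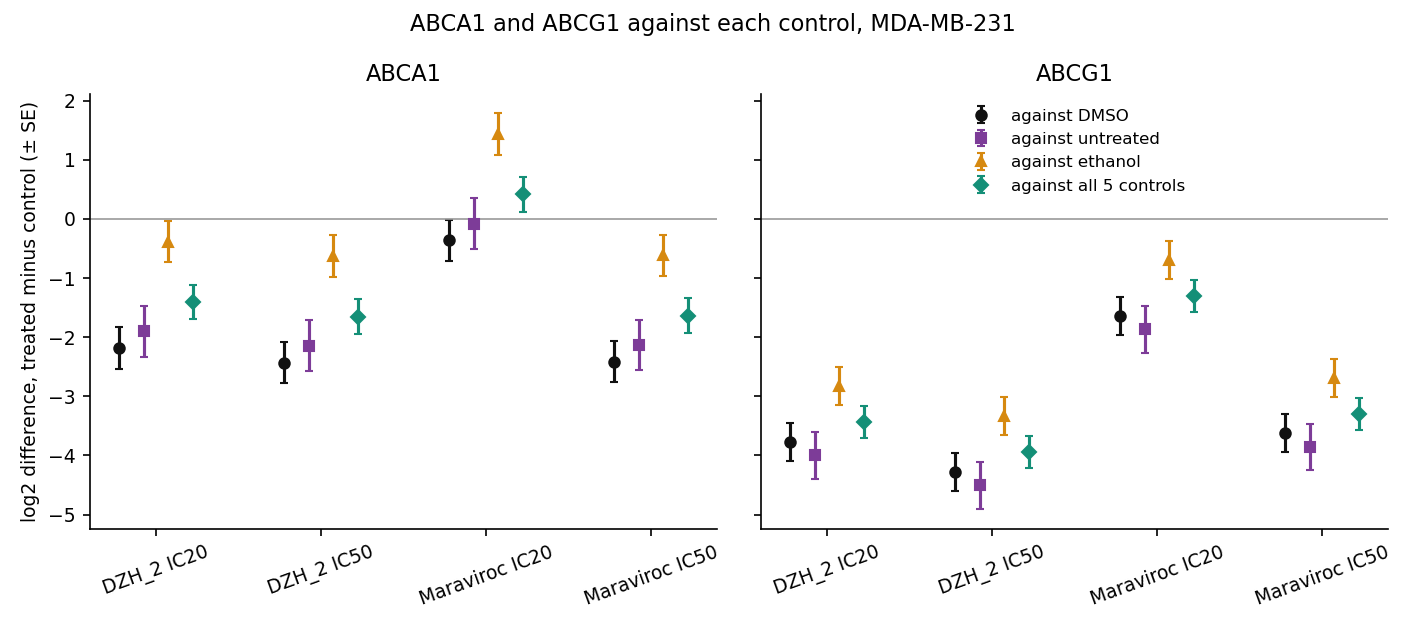
Log2 difference of each treatment from DMSO, untreated cells, ethanol and all 5 controls together (vertical axis, treated minus control, bars ± SE) for ABCA1 (left) and ABCG1 (right) in MDA-MB-231. ABCG1 is below 0 against each control for each treatment, whereas ABCA1 at Maraviroc IC20 goes from 1.44 against ethanol to -0.36 against DMSO.

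The ethanol replicates disagreed on the exporters in opposite senses. Replicate 1 had ABCA1 at 5.72 and ABCG1 at 10.30, and replicate 2 had ABCA1 at 6.33 and ABCG1 at 9.55. The array with less ABCA1 thus had more ABCG1. Relative to DMSO, ABCG1 in ethanol was -0.94 ± 0.32, and -1.31 without replicate 1 or -0.57 without replicate 2. Of the 17 sterol synthesis genes measured, 13 were higher and 4 lower in replicate 2 than in replicate 1, with a median difference of 0.59. The split was counted for ethanol alone, without the share over all genes, and is not particular to it. MSMO1 and SC5D, for example, were also higher in replicate 2 in each other replicated MDA-MB-231 group. By limma no gene passed between ethanol and DMSO at an adjusted p under 0.05, with 1352 of 17687 at an unadjusted p under 0.05.

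The choice of control mattered less for DZH_2 and ABCG1 than for ABCA1. Against ethanol, ABCG1 was -2.83 ± 0.32 at DZH_2 IC20 and -3.34 ± 0.32 at IC50, the 8th and 4th lowest of all genes. Against the untreated array it was -4.00 ± 0.39 and -4.51 ± 0.39, the lowest of all genes both times. ABCA1 against ethanol was -0.38 ± 0.35 at IC20, where the groups overlapped, and -0.63 ± 0.35 at IC50, where they did not, as for 20.8% of genes. Against the untreated array it was -1.90 ± 0.43 and -2.15 ± 0.43. Maraviroc IC50, set against DMSO in place of ethanol, stood at -2.41 ± 0.35 for ABCA1, at least 2.61-fold lower, and at -3.63 ± 0.32 for ABCG1, 12.3-fold lower. Against untreated cells it stood at -2.13 ± 0.43 and -3.86 ± 0.39.

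The order of the groups differed between the exporters. For ABCG1 it ran from untreated (11.09) and DMSO (10.86) through ethanol (9.92) and Maraviroc IC20 (9.22) down to Maraviroc IC50 (7.23), DZH_2 IC20 (7.10) and DZH_2 IC50 (6.58). Among these neighbours only Maraviroc IC50 and DZH_2 IC20 overlapped. For ABCA1 it ran from DMSO (7.82), untreated (7.54) and Maraviroc IC20 (7.46) to ethanol (6.02), DZH_2 IC20 (5.64), Maraviroc IC50 (5.41) and DZH_2 IC50 (5.39). Here untreated cells and Maraviroc IC20 overlapped, and so did each neighbour from ethanol downward, while the step of 1.44 from Maraviroc IC20 to ethanol was clear of the replicates. Both DZH_2 groups, Maraviroc IC50 and 1 ethanol array were below the percentile of the negative controls for ABCA1, so no order is read among them. Above the floor, ABCA1 at Maraviroc IC20 stood beside the untreated array. ABCG1 at Maraviroc IC20 stood below all 5 controls, by only 0.21 from the closest control array. The share of all genes separated in this way is not given.

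Set side by side at the same inhibitory level, the compounds differed at IC20 more than at IC50. At IC20 the DZH_2 arrays had less of both genes than the Maraviroc arrays, by -1.82 ± 0.35 for ABCA1 and -2.13 ± 0.32 for ABCG1. At IC50 the difference was -0.02 ± 0.35 for ABCA1, with both groups at the floor, and -0.65 ± 0.32 for ABCG1, with a gap of 0.14. The DZH_2 arrays lay wholly below the Maraviroc arrays for 20.2% of genes at IC20 and 27.4% at IC50. After each compound's own solvent was subtracted, the differences were -3.62 ± 0.49 and -3.07 ± 0.45 at IC20 and -1.82 ± 0.49 and -1.59 ± 0.45 at IC50. The ABCA1 values include groups at the floor, DZH_2 at both doses, Maraviroc at IC50 and 1 ethanol array. At IC50 the ABCA1 value is nearly the difference of -1.80 between ethanol and DMSO. The 2 genes were compared at 2 doses, with no test.

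The cells titled MCF10 had almost no signal of either exporter. ABCA1 was 4.47 untreated, 4.98 in DMSO, 4.34 at DZH_2 IC20 and 4.57 at IC50, all near the negative controls. ABCG1 was 6.20 untreated, 5.34 in DMSO, 5.87 at IC20 and 6.16 at IC50, with the untreated array the 1 value above the percentile. The 5 controls of MDA-MB-231 averaged 7.05 for ABCA1 and 10.53 for ABCG1, against 4.72 and 5.77 in the MCF10 controls. By these means ABCA1 was at least 1.89-fold lower in MCF10. The sets of controls differ, as 2 of the MDA-MB-231 arrays are of ethanol, where ABCA1 was low, and MCF10 has none. In DMSO alone MDA-MB-231 averaged 7.82 for ABCA1 and 10.86 for ABCG1. Against DMSO, ABCG1 was 0.53 at IC20 and 0.82 at IC50, and ABCA1 -0.64 and -0.40. Against untreated cells ABCG1 was -0.33 and -0.03, and ABCA1 -0.13 and 0.11. The sign for ABCG1 at both doses, and for ABCA1 at IC50, thus depended on which single control array was used. Neither gene reached a difference of 1 against DMSO, which 11.6% of genes did upward and 12.8% downward at IC20, and 9.38% and 8.83% at IC50. Sterol synthesis genes differed far more in these cells: 15 of 17 were higher by at least 1 at IC20, with a median of 3.90 where all genes had 0.02, and 15 at IC50, where 1 was lower by at least 1, with a median of 3.66 where all genes had 0.01. There is 1 array per group, so these values have no replicate check.

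To place the exporters in their pathway, 91 further genes in 8 lists were examined, of which 79 were measured. They were chosen with earlier results of these data known, so their counts are a description. By limma with Benjamini-Hochberg adjustment over all genes, 11 of the 79 rose and 1 fell at DZH_2 IC20, where 0.871% of all genes passed. At DZH_2 IC50, 15 rose and 2 fell, where 1.57% of all genes passed. The median difference over the 79 was 0.37 and 0.51, against 0.00 and 0.04 over all genes. These counts rest on single arrays. Leaving out 1 array of a compared group left fewer of the listed genes past the threshold at both doses, as it did over all genes. Without 1 of the DMSO arrays most of them no longer passed.

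Most other LXR targets did not pass with DZH_2. Of 13 measured, FASN passed upward at each dose and SREBF1 passed downward at IC50. SREBF1, which drives fatty acid synthesis, lay on the same side as the exporters, at -1.28 ± 0.28 (adjusted p = 0.055) at IC20, and fell at IC50 by 1.36 on the log2 scale (adjusted p = 0.037). Its arrays were 14.84 and 14.99 in DMSO, 13.45 and 13.82 at IC20, and 13.37 and 13.74 at IC50. FASN, fatty acid synthase, which is a target of SREBF1 as well as of LXR, rose by 2.59 ± 0.44 and 2.79 ± 0.44 (adjusted p = 0.024 and 0.013). The desaturase gene SCD stood at 1.58 ± 0.34 and 1.21 ± 0.34 (adjusted p = 0.052 and 0.096). APOE, whose product accepts sterol, stood at 0.37 ± 0.31 at IC20 (adjusted p = 0.74). The LXR gene NR1H3 itself stood at -0.14 ± 0.28 and -0.56 ± 0.28 (adjusted p = 0.93 and 0.38). The list medians were -0.03 and 0.13. By group mean, ABCG5, ABCG8, CETP and LPL were near the negative controls in DMSO and with DZH_2.

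No gene of the receptor list (6 measured) passed with DZH_2. Neither an LXR gene nor RXRA was among these 6, and NR1H3 was counted with the targets. RXRB, a partner of LXR, stood at 0.57 ± 0.28 and 0.45 ± 0.28 (adjusted p = 0.46 and 0.49). Among 7 genes of efflux and its acceptors, CAV1 fell at both doses, to -1.63 ± 0.29 and -1.69 ± 0.29 (adjusted p = 0.028 and 0.018). It codes for caveolin, a cholesterol-binding coat protein of membrane pits. The HDL receptor gene SCARB1 stood at 1.44 ± 0.36 and 1.18 ± 0.36 (adjusted p = 0.092 and 0.12). Of 7 oxysterol enzymes none passed, and of 11 other ABCA and ABCG genes none passed, with medians of 0.01 and 0.38 for the latter.

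Of 17 measured sterol synthesis genes 8 rose at DZH_2 IC20 and 10 at IC50, none fell, and the median was 1.78 at each dose. The other 9 and 7 did not pass, among them PMVK, a kinase of the mevalonate pathway, at -0.30 and -0.27 (adjusted p = 0.83 and 0.77). HMGCS1 rose from 8.09 and 7.97 in DMSO to 12.44 and 12.56 at IC20 and 12.67 and 12.92 at IC50 (adjusted p = 2.4e-04 and 7.6e-05). DHCR7, the last enzyme of cholesterol synthesis, rose by 3.40 ± 0.36 and 3.32 ± 0.36 (adjusted p = 0.0024 and 0.0032). In the list of sterol uptake and SREBP control 2 of 6 rose at each dose. SREBF2, which holds miR-33a, rose by 1.54 ± 0.28 and 1.48 ± 0.28 (adjusted p = 0.033 and 0.028). INSIG1, the sterol-regulated brake on SREBF2 processing, rose by 2.88 ± 0.40 and 3.27 ± 0.40 (adjusted p = 0.0096 and 0.0058). In the traffic list none of 12 passed at IC20 and 2 rose at IC50. NPC1, which exports cholesterol from lysosomes, stood at 2.11 ± 0.47 at IC20 (adjusted p = 0.065) and rose by 2.29 ± 0.47 at IC50 (adjusted p = 0.037). The sterol carrier gene STARD4 stood at 1.55 ± 0.39 at IC20 (adjusted p = 0.095) and rose by 2.05 ± 0.39 at IC50 (adjusted p = 0.028).

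**Figure D3:**
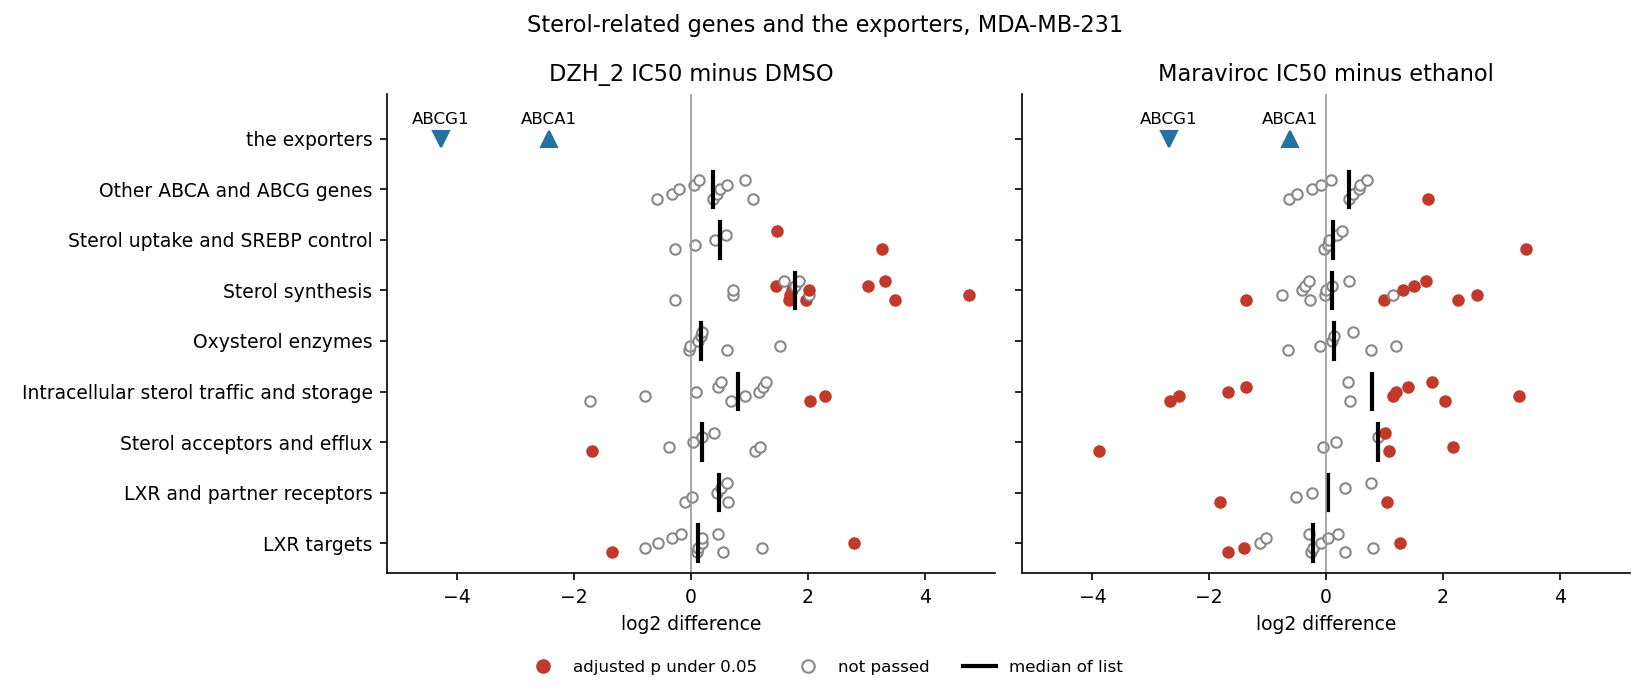
Log2 difference (horizontal axis) of each measured gene of 8 sterol-related lists, and of the exporters, for DZH_2 IC50 minus DMSO (left) and Maraviroc IC50 minus ethanol (right); filled points passed at an adjusted p under 0.05 and bars are list medians. The exporters were not tested here; ABCG1, at -4.28 and -2.69, lies to the left of all listed genes with DZH_2, and with Maraviroc CAV1, at -3.89, lies further left.

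With Maraviroc IC20 none of the 79 genes passed against ethanol, nor did any other gene by limma (0% of all genes, 309 at an unadjusted p under 0.05). HMGCS1 stood at 1.89 ± 0.35 and DHCR7 at 1.77 ± 0.36, each with an adjusted p of 1.0. Of 17 sterol synthesis genes 16 were higher, with a median of 0.83 against -0.01 over all genes. SREBF1 stood at -0.29 ± 0.28 and the 13 LXR targets had a median of -0.10.

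At Maraviroc IC50 genes of the pathway passed in both directions, in a comparison where 27.0% of all genes passed. Of the 79 genes 19 rose and 9 fell, 28 in all, and 26 of the 28 also passed after quantile normalization. That does not address the wider spread of the Maraviroc IC50 replicates, since the fit uses 1 spread per gene over all groups. With array weights 20 passed (3218 over all genes, against 4778), and with the 4 arrays alone 14 (2399 over all genes). Among the LXR targets SREBF1 fell by 1.68 (adjusted p = 7.4e-04) and SMPDL3A, a lysosome-related phosphodiesterase gene, by 1.40 (adjusted p = 0.030) on the log2 scale. FASN rose by 1.27 ± 0.44 (adjusted p = 0.049). The other 10 targets did not pass, and the median was -0.23 against 0.11 over all genes. PPARG, a lipid-sensing nuclear receptor gene, fell by 1.82 (adjusted p = 0.0016), and RXRB rose by 1.04 ± 0.28 (adjusted p = 0.014).

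Transport genes split at this dose. NPC1 rose by 3.31 ± 0.47 (adjusted p = 2.7e-04) and STARD3, a sterol carrier of late endosomes, by 1.81 ± 0.28 (adjusted p = 5.3e-04). NCEH1, a cholesteryl ester hydrolase gene, fell by 2.66 (adjusted p = 7.6e-04). GRAMD1C, a carrier between membranes, fell by 2.52 (adjusted p = 0.0015) to a level near the negative controls. In all 6 of 12 traffic genes rose and 4 fell. Of 7 efflux genes 3 rose and 1 fell: CAV1 was at -3.89 ± 0.29 (adjusted p = 3.1e-06) and ABCA7, a close relative of ABCA1, at 2.18 ± 0.51 (adjusted p = 0.0072). ABCG4, the closest relative of ABCG1 in the lists, stood at 1.02 ± 0.33 (adjusted p = 0.036) with both groups near the negative controls. Of 17 synthesis genes 6 rose and 1 fell, with a median of 0.10. Of 6 uptake and control genes INSIG1 rose by 3.42 ± 0.40 (adjusted p = 6.6e-05) and no other passed, and SREBF2 stood at 0.06 ± 0.28 (adjusted p = 0.91). Of 11 other ABCA and ABCG genes, ABCA9 rose by 1.74 ± 0.43 (adjusted p = 0.0090) from a level near the negative controls. Of 7 oxysterol enzymes none passed.

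Over the 13 MDA-MB-231 arrays the gene whose signal ran most closely against ABCG1 was one of sterol synthesis. HSD17B7, which acts in removing methyl groups from the sterol ring, had a Pearson r of -0.97, the lowest of all genes. INSIG1 (r of -0.94) was the fifth lowest, HMGCS1 (-0.93) the 7th and DHCR7 (-0.90) the 21st. The other listed synthesis genes ran against ABCG1 less closely, and PMVK ran with it (0.64). The others of the 5 lowest were DUSP10, a phosphatase of stress kinases (-0.97), KCNAB2 (-0.96) and PTPRS (-0.95). The 5 highest were PSIP1 (0.97), MICOS10 (0.95), SREBF1 (0.94), the DNA repair gene MRE11 (0.93) and XRCC2 (0.93). SREBF1, the third highest of all genes, was the 1 listed LXR target among them. These r describe arrays that fall into treatment groups and carry no p.

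The likenesses of ABCA1 rest partly on values at the floor, as it was below the percentile of the negative controls on 7 of the 13 arrays. Its 5 highest were HNRNPH3 (0.89), TOPBP1 (0.88), MTRFR (0.88), ABCB10 (0.88) and EXOSC8 (0.87), and its 5 lowest LIPT2 (-0.92), ZNF689 (-0.92), CYTH1 (-0.91), ARRDC1-AS1 (-0.87) and OR6B1 (-0.87). ABCB10 is a mitochondrial transporter of the same superfamily, and OR6B1 was below the percentile on all 13 arrays. ABCG1 came 108th among the genes most like ABCA1, with an r of 0.79, and ABCA1 came 261st in the list of ABCG1. SREBF1 had an r of 0.73 with ABCA1 and INSIG1 one of -0.72.

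**Figure D4:**
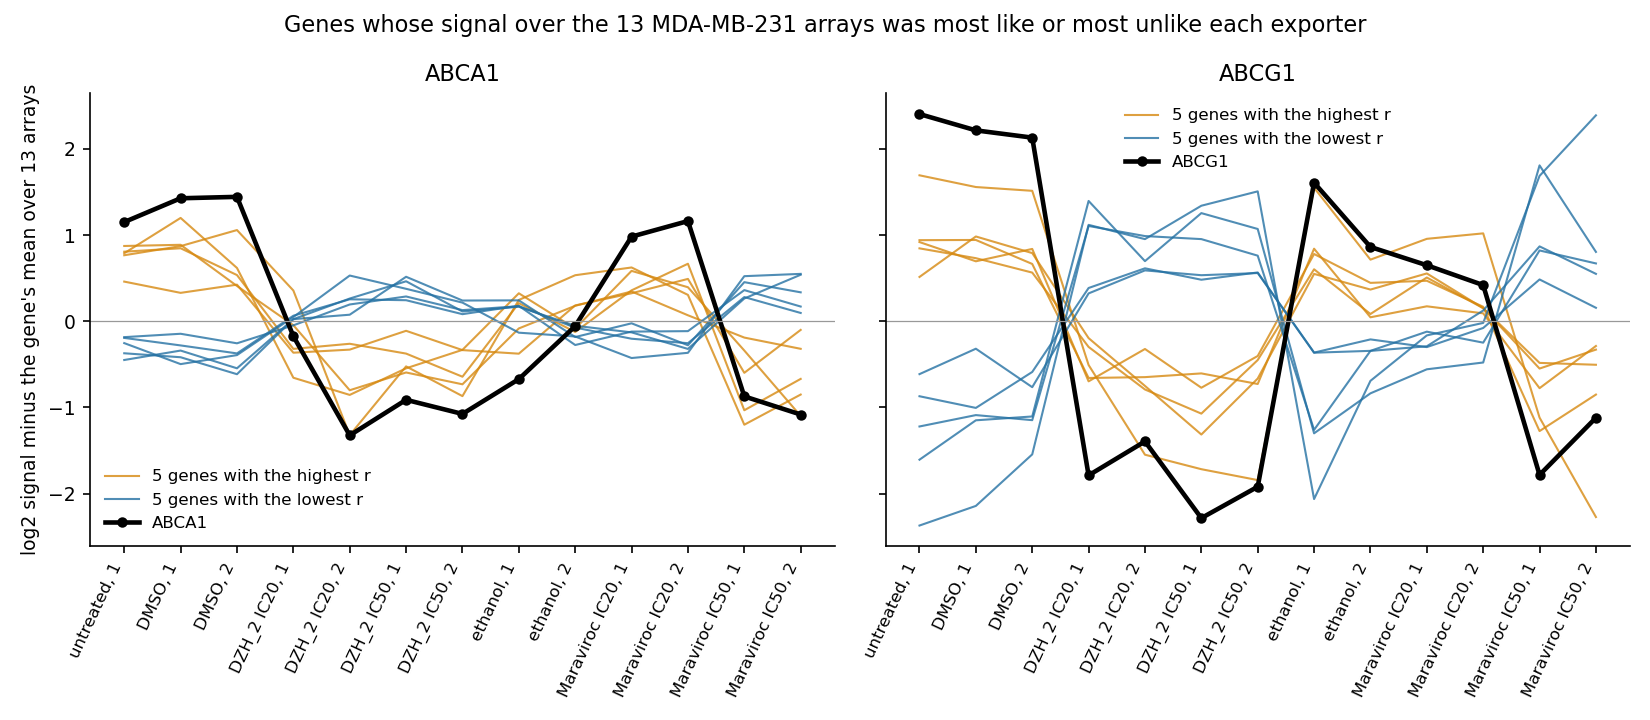
Log2 signal minus each gene's mean over the 13 MDA-MB-231 arrays (vertical axis), by array, for ABCA1 (left) and ABCG1 (right) in black, with the 5 genes of highest (orange) and lowest (blue) Pearson r. The 5 lowest genes of ABCG1 run against it over the arrays (r from -0.97 to -0.94), and ABCA1 is high on the Maraviroc IC20 arrays. INSIG1 and PTPRS, like ABCG1, are nonetheless higher at Maraviroc IC50 than at DZH_2 IC50. So is DUSP10 by its mean, with overlapping arrays.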

How the data were processed

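Per the labels' protocols, treatment began 24 h after seeding and lasted 48 h, Trizol was used for RNA, and arrays were prepared with an Affymetrix kit. Values as deposited are log2 signals per probe set; the sources used here do not say how the authors summarised or normalized them. Precision is limited by how few arrays each group has. Groups follow the titles. Of 24351 probe sets 17709 had exactly 1 gene symbol, giving 17687 genes (the highest mean for 20 genes with several). The 13 MDA-MB-231 arrays were fitted in 7 groups with limma 3.58.1 (lmFit, eBayes; R 4.3.3), with 6 residual degrees of freedom, 2-sided tests and Benjamini-Hochberg adjustment over 17687 genes. No filter on low signal was used. The step was tested on simulated data. The exporters and the gene lists were chosen with earlier results of these data known, so no p is given for ABCA1 or ABCG1. Genes named were the exporters, up to 4 members per list with the smallest p in a comparison, and the 5 genes with the highest and the 5 with the lowest r for each exporter, and a gene so named may appear under other comparisons. Alternatives were median centring, quantile normalization, array weights, fewer arrays, a low-signal filter, a trend in eBayes, a replicate block, and other controls.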

Additional observations from a re-analysis of the deposited data

Results flagged for a closer look

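ABCG1 differed from DMSO in opposite directions in the arrays of the lines: on the array titled MCF10 it was 0.53 higher at DZH_2 IC20 and 0.82 higher at IC50, whereas every MDA-MB-231 array with DZH_2 lay below DMSO (-3.77 and -4.28). The difference between the lines was not tested, since MCF10 has 1 array per group. All 3 MCF10 values lay near the negative controls, and the direction turned against the untreated MCF10 array (-0.33 and -0.03).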

How the results depend on the processing

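Each exporter has 1 probe set, so no other probe set was tried. Median centring, quantile normalization, array weights and the replicate block left all 10 exporter differences from the solvents (and of ethanol from DMSO) within the SD between replicates. The control moved them most. With the other solvent, ABCA1 was -0.38 and -0.63 at DZH_2 IC20 and IC50 and -0.36 (turned) and -2.41 at Maraviroc IC20 and IC50, and ABCG1 was -2.83, -3.34, -1.64 and -3.63. With the untreated array in place of ethanol, ABCA1 was -0.079 (turned) at Maraviroc IC20 and -2.13 at IC50, and ABCG1 was -1.87 and -3.86. With all 5 controls ABCA1 was -1.41, -1.65, 0.41 and -1.64, and ABCG1 was -1.31 and -3.30 for Maraviroc. Leaving out 1 array gave, for ABCA1, -2.76 to -1.61 and -2.51 to -2.35 with DZH_2, 1.13 to 1.74 and -0.92 to -0.31 with Maraviroc and -2.11 to -1.49 for ethanol. For ABCG1 it gave -3.96 to -3.57, -4.46 to -4.10, -1.07 to -0.33, -3.06 to -2.31 and -1.31 to -0.57. The count of listed genes past the threshold was 12, 17, 0, 28 and 0 in these 5 comparisons. Leaving out 1 array gave 1 to 8, 1 to 4, 0 to 0, 18 to 29 and 0 to 0. Array weights gave 24 and 26 with DZH_2, where calls over all genes went from 154 and 277 to 488 and 942. The fit without the Maraviroc IC50 arrays gave 23 at DZH_2 IC20, with 495 over all genes. The 4 arrays alone gave 26 at DZH_2 IC50 (817 over all genes). They gave 14 at Maraviroc IC50 (2399 over all genes, against 4778 in the main fit). The cause was not tested. Median centring, quantile normalization, the low-signal filter and the eBayes trend moved none of these counts by over 1.5 times. Against all 5 controls, chosen after seeing the data, the count was 17, 19, 0 and 37 for the compounds. Calls over all genes were then 320, 518, 0 and 6607. With the replicate block the count was 17, 21, 0, 30 and 0, with 204, 347, 0, 4821 and 0 over all genes. Over all genes, same-numbered replicates deviated together at correlations of -0.08 to 0.25. That does not settle the matter for single genes. MSMO1 and SCD were higher in replicate 2 in every replicated MDA-MB-231 group, whereas others, such as PMVK, went both ways. Whether the numbers mark a shared batch was not tested. Signal near the negative controls limits ABCA1 in 3 treated MDA-MB-231 groups and 1 ethanol array, and both exporters in MCF10.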
